A study of Mus musculus with 32 samples.

Results

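The neurotrophins and their receptors were followed through 6 genes: the ligands Bdnf and Ntf3, the receptor tyrosine kinases Ntrk2 (TrkB) and Ntrk3 (TrkC), the receptor Ngfr (p75NTR) and the sorting receptor Sort1 (sortilin). They were chosen by gene symbol, and all 6 were found among the 55291 symbols of each of the 4 count tables. The study profiled whole brains of C57BL/6J mice that were either WT (Dhcr7+/+) or KO (Dhcr7-/-), as a model of Smith-Lemli-Opitz syndrome, a disorder of the last step of cholesterol synthesis. The ages were E12.5, E14.5 and E16.5, where E is the embryonic day, and PND0, the day of birth, with 4 libraries in each of the 8 groups and 32 in all. No treatment is named, and the labels give neither litter nor sex, nor the part of Dhcr7 that the KO allele lacks. Nothing in them says that the libraries of a group came from separate litters, so p-values measure the spread between these samples. Each stage has its own count table, so a difference between stages and a difference between tables cannot be told apart.

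Neurotrophins are small secreted proteins that support the survival, growth and synapse formation of neurons. BDNF binds TrkB and NT-3, the product of Ntf3, binds TrkC. Both receptors signal through adaptors such as Shc and Frs2 to the MAP kinase and PI3 kinase pathways, and they also signal through phospholipase C. The uncleaved proforms bind p75NTR together with sortilin, a pairing known for its part in neuronal death, and sortilin also steers proBDNF inside the cell. In the developing brain, TrkB and TrkC are made by many neurons and by glia, with truncated forms that lack the kinase, and the counts per gene do not separate those forms.

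Dhcr7, whose product reduces 7-dehydrocholesterol to cholesterol, checked the labels: it ran from 58.6 to 102 CPM (counts scaled to the library total) in the 16 WT libraries and from 11.5 to 26.7 CPM in the 16 KO libraries. In order of stage, the log2 difference was -1.64, -2.40, -1.88 and -2.63, each past the threshold of an adjusted p under 0.05. At E12.5 the difference was -1.65 without KO 2 (adjusted p = 0.0625) or without KO 4 (adjusted p = 0.0558). Totals were 13.87 to 28.32 M counts per library. Neuron markers (8 genes) summed to 2463 to 6450 CPM and forebrain and midbrain markers (6 genes) to 464.8 to 1089 CPM in the WT libraries. In the E12.5 set, 2 libraries stood apart. E12.5 WT 1 had the highest E12.5 sums for Schwann cell and neural crest, meninges and mesenchyme, oligodendrocyte precursor and skin markers and the lowest for neurons, and E12.5 KO 1 had 5.64% of its counts on the ribosomal RNA gene CT010467.1, against 0.191 to 0.376% in the other E12.5 libraries. For the 6 genes, values that moved clearly without these libraries are given both ways. E16.5 WT 1 also stood apart, with 3.75% of its counts on CT010467.1 against 0.356 to 0.626% in the other E16.5 libraries. At E14.5, KO 3 and KO 4 had 2.68% and 2.55%, against 0.869 to 1.17% in the other E14.5 libraries. Skin markers (3 genes) summed to 1.67 to 133.2 CPM in WT at E12.5 and to 0.0354 to 0.339 CPM at E14.5. Meninges and mesenchyme markers (7 genes) summed to 1453 to 3353 CPM and to 640.5 to 745.0 CPM. Leaving out E12.5 WT 1 does not remove these differences between stages, and their part in the WT changes from E12.5 was not tested.

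On GRCm38, Bdnf (ENSMUSG00000048482.14) lies on the plus strand at chr2:109674700-109727007 and Ntf3 (ENSMUSG00000049107.13) on the minus strand at chr6:126101412-126166910. Ntrk2 (ENSMUSG00000055254.15) is at chr13:58806569-59133970 on the plus strand, Ntrk3 (ENSMUSG00000059146.12) at chr7:78175959-78738012 on the minus strand, Ngfr (ENSMUSG00000000120.6) at chr11:95568818-95587735 on the minus strand and Sort1 (ENSMUSG00000068747.14) at chr3:108284082-108361511 on the plus strand. The antisense genes Gm45346 and Gm12523 overlap exons of Bdnf and of Sort1, and because no strand setting is given, reads of those pairs may not be separable. The promoters of the ligands are shown because Bdnf is read from several start sites that the counts per gene add together. RefSeq (GRCm38.p6) lists 7 windows before a Bdnf start and 2 before an Ntf3 start, and 4 of the 6 members have such a window. The windows printed here are the 250 bases before the third Bdnf start (chr2:109692186-109692435, plus strand) and before the first Ntf3 start in the table (chr6:126166745-126166994, minus strand). This Bdnf window lies within the Bdnf span given above. The Ntf3 span given above reaches 126166910, so part of the Ntf3 window lies inside it, and the 2 annotations differ in that start. Capitals mark the letters TGACG read on either strand (CGTCA in the printed strand), the core of the site bound by CREB.
Bdnf, window 3: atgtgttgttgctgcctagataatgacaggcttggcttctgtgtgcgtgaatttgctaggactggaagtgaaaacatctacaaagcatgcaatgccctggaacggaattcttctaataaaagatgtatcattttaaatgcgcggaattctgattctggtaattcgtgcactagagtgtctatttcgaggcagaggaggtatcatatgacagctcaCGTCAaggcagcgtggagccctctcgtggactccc
Ntf3, window 1: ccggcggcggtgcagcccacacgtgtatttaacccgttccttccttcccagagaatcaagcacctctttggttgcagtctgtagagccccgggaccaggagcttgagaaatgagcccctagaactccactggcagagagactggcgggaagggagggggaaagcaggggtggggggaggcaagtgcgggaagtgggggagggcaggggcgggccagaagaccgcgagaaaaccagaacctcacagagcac
The motif TGACG or its reverse complement was found in 1 of the 11 windows of the members, the Bdnf window above, at base 216, and in 17.8% of the 32851 windows of all genes. It is a match of letters, and no measurement of binding was made.

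Compared per kilobase of annotated exon, the receptors outranked the ligands in WT brain at every stage. Sort1 had the highest mean, from 21.6 to 30.5 CPM per kb over the stages. The order at E12.5 was Sort1, Ngfr (11.3 CPM per kb), Ntrk2 (4.71), Ntrk3 (1.87), Ntf3 (1.81) and Bdnf (0.500). At PND0 it was Sort1 (24.8 CPM per kb), Ntrk2 (18.4), Ntrk3 (5.71), Ngfr (4.73), Ntf3 (2.96) and Bdnf (1.20). Ntrk2 thus passed Ngfr, and so did Ntrk3. Neighbours whose means lay within their spread were Ntrk3 and Ntf3 at E12.5 (SD 0.513 and 1.76, n = 4 each), Bdnf and Ntf3 at E14.5 (0.480 ± 0.0878 and 0.444 ± 0.136 CPM per kb) and Ntrk3 and Ngfr at PND0 (SD 0.400 and 0.753). So were Ntf3 and Bdnf at E12.5 (SD 1.76 and 0.340) and at E16.5 (1.63 ± 1.20 and 0.739 ± 0.173 CPM per kb). Library by library, the ratio of Bdnf to Ntf3 per kb was 0.229 to 0.505 in WT at E12.5, with Ntf3 the higher in each. At E16.5 that ratio ran from 0.166 to 1.49. The scale depends on the length used: per kb of the longest transcript, Ntrk2 was at 40.6 and Sort1 at 27.5 at PND0, so that Ntrk2 came first.

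**Figure D1:**
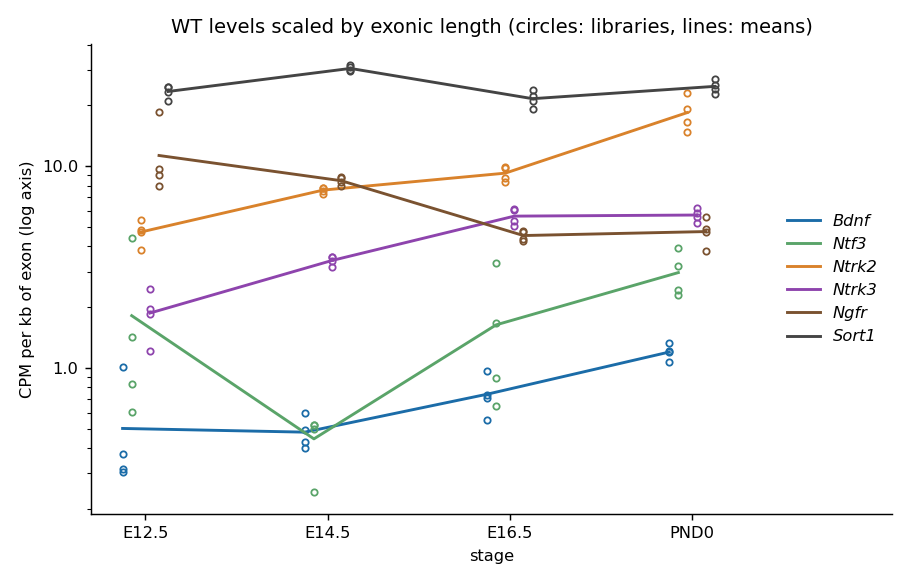
CPM per kb of annotated exon (log axis) in WT whole brain at the 4 stages; circles are the 4 libraries of a stage and lines join the group means of each gene. Sort1 stays between 21.6 and 30.5, Ntrk2 climbs from 4.71 to 18.4 and Ngfr goes from 11.3 to 4.73 CPM per kb over the stages, and at PND0 the ligands Ntf3 and Bdnf are the lowest of the 6.

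Bdnf mRNA was 2.46 times as abundant at PND0 as at E12.5 in WT brain. BDNF is the TrkB ligand best known for activity-dependent synapse growth. The E12.5 WT libraries had 6.27, 2.32, 1.90 and 1.96 CPM, those of E14.5 had 2.68, 3.72, 2.48 and 3.05, those of E16.5 had 3.42, 6.02, 4.54 and 4.402, and those of PND0 had 6.62, 7.42, 8.21 and 7.52. The first library of E12.5 stood above its group, and the PND0 libraries lay above every library of the earlier stages. Bdnf rose from E14.5 to E16.5 (log2 fold change 0.64, SE 0.193, adjusted p = 0.00973 by edgeR's quasi-likelihood test, groups overlapping) and from E16.5 to PND0 (0.66, SE 0.183, adjusted p = 0.00703). From E12.5 to PND0 the log2 fold change was 1.30 (SE 0.361, adjusted p = 0.00768), and 1.88 without E12.5 WT 1. The first step, from E12.5 to E14.5, was -0.07 (adjusted p = 0.888) with all libraries and 0.53 (adjusted p = 0.0454) without E12.5 WT 1. The second step gave an adjusted p of 0.0513 when all 32 libraries were fitted together.

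Ntf3 took a dip and then climbed. Its product NT-3 acts on TrkC and is known for the support of early sensory and cortical neurons. The WT libraries had 7.53, 2.44, 1.04 and 1.42 CPM at E12.5 and 0.893, 0.850, 0.413 and 0.890 CPM at E14.5. They had 5.68, 1.11, 2.87 and 1.53 CPM at E16.5 and 6.73, 3.93, 5.48 and 4.18 CPM at PND0. The E14.5 libraries were the lowest of all and did not overlap with either neighbour stage, whereas E16.5 spread over a wide range. Ntf3 fell from E12.5 to E14.5 (log2 fold change -2.02, SE 0.650, adjusted p = 0.0258) and rose from E14.5 to E16.5 (1.88, SE 0.502, adjusted p = 0.00846). The fall was -1.08 without E12.5 WT 1 (adjusted p = 0.0209), and its adjusted p was 0.0568 without E14.5 WT 3 and 0.0811 with no filter on low counts. The rise to E16.5 ran from 1.26 to 2.15 with 1 library left out, with an adjusted p of at most 0.0284. From E16.5 to PND0 the log2 fold change was 0.84 (adjusted p = 0.117), and 1.44 (adjusted p = 0.00221) without E16.5 WT 1. From E12.5 to PND0 it was 0.75 (adjusted p = 0.224), and 1.68 (adjusted p = 0.000526) without E12.5 WT 1.

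Ntrk2 rose at every step and had the largest gain of the 6 genes, 3.99-fold from E12.5 to PND0. It encodes TrkB, the receptor for BDNF. Its WT libraries of E12.5 had 74.1, 93.2, 105 and 91.3 CPM, those of E14.5 ran from 140.8 over a median of 147.3 to 150.6, those of E16.5 had 192, 189, 169 and 162, and those of PND0 had 370, 320, 446 and 285. No library of a stage overlapped with the stage before it. The log2 fold changes of the steps were 0.66 (SE 0.0866, adjusted p = 0.000138), 0.30 (SE 0.0571, adjusted p = 0.000298) and 0.97 (SE 0.119, adjusted p = 1.75e-05). Astrocyte markers (7 genes), a cell type that makes truncated TrkB, summed to 163.0 to 274.2 CPM in WT at E12.5 and to 540.9 to 679.8 CPM at PND0. Neuron markers (8 genes) were also higher, at 2463 to 4338 CPM in WT at E12.5 and 5592 to 6450 CPM at PND0. The part of either cell type in the gain was not tested. In whole tissue, more cells of a type and more RNA per cell cannot be told apart.

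Ntrk3, which encodes TrkC, rose until E16.5 and not measurably after it. The WT libraries of E12.5 had 36.5, 55.8, 74.2 and 58.9 CPM, and 107, 106, 102 and 95.5 CPM were measured in those of E14.5. The E16.5 libraries had 183, 160, 185 and 153 CPM, and the PND0 libraries 177, 168, 186 and 158 CPM. The first 3 stages were separate from each other, while the last 2 covered the same range. The log2 fold changes were 0.84 (SE 0.176, adjusted p = 0.00365), 0.75 (SE 0.0651, adjusted p = 1.27e-07) and -0.01 (SE 0.0787, adjusted p = 0.917). From E12.5 to PND0 the gain was 3.13-fold.

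Ngfr was the only member that was lower at PND0 than at E12.5 by the test, at 0.428 of its E12.5 level (log2 fold change -1.22, SE 0.255, adjusted p = 0.00131; -0.87 without E12.5 WT 1). p75NTR binds all neurotrophins and their proforms, and is made by neural crest cells, Schwann cells and some neurons. The E12.5 WT libraries had 63.8, 33.3, 27.3 and 31.0 CPM and the E14.5 ones 29.95, 28.7, 27.4 and 30.6 CPM. By E16.5 the levels were 15.03, 16.4, 16.3 and 14.6 CPM, and the PND0 libraries had 13.01, 16.2, 19.3 and 16.7 CPM. Apart from E12.5 WT 1, the levels formed a high pair of stages and a low pair. The fall lay between E14.5 and E16.5 (-0.88, SE 0.0779, adjusted p = 1.18e-07), whereas the step after it was 0.04 (adjusted p = 0.826). The step before it was -0.44 (adjusted p = 0.170), and -0.08 without E12.5 WT 1. With all libraries of the comparison, that step passed the threshold with the sex-gene covariate (-0.69, adjusted p = 0.0289) and when all 32 libraries were fitted together (-0.42, adjusted p = 0.0261).

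Sort1 peaked at E14.5. Its product, sortilin, carries proBDNF and other cargo between the Golgi, the endosomes and the cell surface. WT levels were 158, 177, 187 and 187 CPM in the E12.5 libraries and 223, 239, 227 and 233 CPM in the E14.5 libraries. The E16.5 libraries had 168.8, 144.7, 179.8 and 159.2 CPM and the PND0 libraries 182.8, 191.4, 204.7 and 172.5 CPM. All E14.5 libraries lay above those of the other stages. Sort1 rose by 0.35 on the log2 scale (SE 0.0547, adjusted p = 0.000383), fell by 0.48 (SE 0.0622, adjusted p = 7.21e-06) and then stood 0.17 higher (SE 0.0781, adjusted p = 0.0740). That last step passed the threshold without E16.5 WT 3 (adjusted p = 0.0466) or PND0 WT 4 (0.0403), with the sex-gene covariate (0.0480) and when all 32 libraries were fitted together (0.0384).

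These calls are read against a developing brain in which most genes tested moved. From E12.5 to E14.5, 3 members rose and 1 fell, where 27.3% of all genes tested rose and 30.5% fell. From E14.5 to E16.5, 4 rose and 2 fell (29.3% and 28.2% of all genes). From E16.5 to PND0, 2 rose and none fell (26.0% and 27.2%), and from E12.5 to PND0, 3 rose and 1 fell (34.5% and 36.4%).

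**Figure D2:**
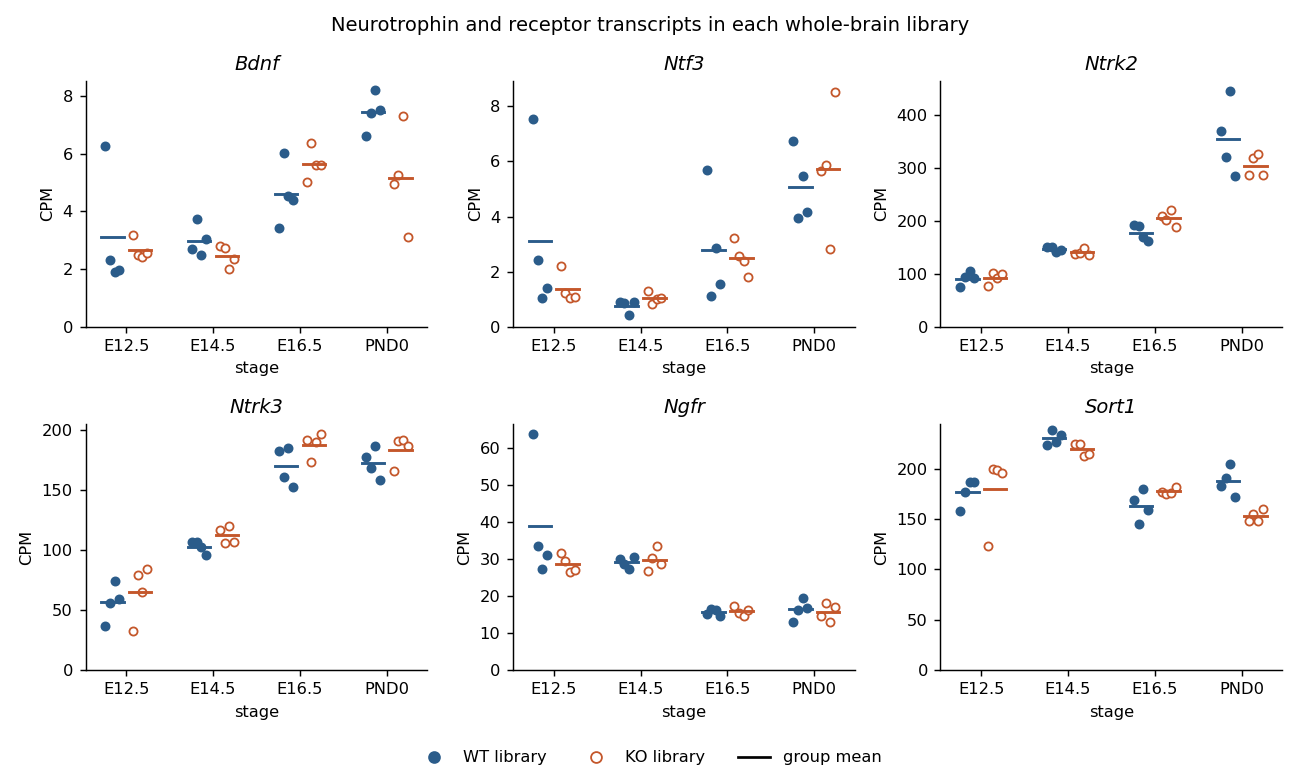
CPM of each gene in every whole-brain library by stage, with WT as filled and KO as open circles and bars for group means. Most WT and KO libraries of a stage overlap; Sort1 at PND0 separates (172.5 to 204.7 in WT, 147.9 to 159.7 in KO), and E12.5 WT 1 stands apart for Bdnf, Ntf3 and Ngfr.

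Between genotypes, none of the 6 members passed the threshold at any stage in edgeR's quasi-likelihood test, where the share of all genes tested that was called was 0.0177% (E12.5), 0.527% (E14.5), 0.0462% (E16.5) and 1.44% (PND0). The PND0 share is 250 genes, and leaving out 1 library gave 35 to 263. At an unadjusted p under 0.05, Ntrk3 at E14.5, Ntrk2 at E16.5, and Bdnf and Sort1 at PND0 were below it. With DESeq2, which called 921 genes at PND0, Sort1 at PND0 was the only member called (adjusted p = 0.0103). DESeq2 gave no adjusted p for Bdnf and Ntf3 at E14.5 or for Bdnf, Ntf3 and Ngfr at E16.5.

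Sort1 came closest. At PND0 the WT libraries had 183, 191, 205 and 173 CPM and the KO libraries 148, 156, 148 and 160 CPM. The groups did not overlap, and all KO libraries were below all WT libraries. The means were 187.8 ± 13.6 and 152.8 ± 5.78 CPM (SD, n = 4 each), a log2 difference of -0.30 (SE 0.0723, adjusted p = 0.0502). Over the alternatives, the adjusted p ran from 0.0103 to 0.740: it was 0.0261 with no filter on low counts, 0.0455 with all 32 libraries in 1 fit and 0.0461 without PND0 WT 4. With offsets for transcript length the difference shrank to -0.16 (adjusted p = 0.308), and with the ribosomal RNA covariate it was -0.31 with an adjusted p of 0.740. CT010467.1 took 1.80 to 2.78% of counts in the WT and 1.16 to 2.09% in the KO libraries of PND0, and the part of that share was not tested. At PND0 the forebrain and midbrain markers summed to 468.4 to 628.9 CPM in WT and 669.2 to 862.5 CPM in KO, and the hindbrain and spinal cord markers (7 genes, with 3 to 6 of them at 0 in each library) to 1.24 to 7.02 in WT and 0.238 to 0.515 CPM in KO, in both cases without overlap. Their part in the Sort1 difference was not tested. At the other stages Sort1 differed by 0.00 at E12.5 (0.13 without KO 1), -0.07 at E14.5 and 0.11 at E16.5.

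The other sorting receptors of the sortilin family had differences below 0 at PND0, none past the threshold. The median over all genes tested at PND0 was 0.00, so a value below 0 is common. Sorl1, known for the trafficking of the amyloid precursor protein, had a log2 difference of -0.41 (adjusted p = 0.114), Sorcs3 -0.49 (adjusted p = 0.0880), Sorcs1 -0.21 (adjusted p = 0.358) and Sorcs2 -0.09 (adjusted p = 0.762). WT and KO libraries of Sorl1 and of Sorcs3 did not overlap, by narrow gaps. The lowest WT and highest KO libraries were at 64.9 and 64.75 CPM for Sorl1 and at 33.43 and 32.48 CPM for Sorcs3. The share of all genes without overlap was not computed. Values with length offsets or the ribosomal RNA covariate are not given for these genes. At E14.5, the Sorl1 means were 72.6 ± 5.24 CPM for WT and 63.2 ± 3.58 CPM for KO (SD, n = 4 each), without overlap, with a log2 difference of -0.20 (adjusted p = 0.0723). At E16.5 the sign was opposite, also without overlap, with 56.5 to 74.0 CPM in WT and 74.5 to 79.8 CPM in KO (log2 difference 0.17, adjusted p = 0.418).

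The ligands gave no call. Bdnf at PND0 was at 6.62, 7.42, 8.21 and 7.52 CPM in WT and at 4.97, 5.28, 7.30 and 3.10 CPM in KO. Of the KO libraries, 3 lay below all WT libraries and the other among them. The log2 difference was -0.53 (SE 0.232, adjusted p = 0.237). At the earlier stages it was -0.24, -0.27 and 0.28, with adjusted p from 0.546 to 0.938. At E12.5 the sign rested on WT 1, since without that library the Bdnf difference was 0.36 (adjusted p = 1.0). Ntf3 differed by -1.19 at E12.5 (SE 0.619, adjusted p = 0.875), and by -0.26 without WT 1. Its KO libraries had 2.20, 1.21, 1.03 and 1.09 CPM there, within the range of the WT libraries or just under it. At E14.5, E16.5 and PND0 Ntf3 differed by 0.45, -0.17 and 0.16, with adjusted p from 0.783 to 0.925. At E16.5 it was 0.43 without WT 1, the library with the high ribosomal RNA share.

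The Trk receptors gave no call either. Ntrk2 at E16.5 had 192, 189, 169 and 162 CPM in WT and 208, 202, 220 and 188 CPM in KO. The KO libraries were mostly the higher, with overlap, and the log2 difference was 0.19 (SE 0.0683, adjusted p = 0.346). At PND0 the sign was opposite, with a WT mean of 355 ± 69.5 CPM and a KO mean of 304 ± 20.8 CPM (SD, n = 4 each), a log2 difference of -0.23 (adjusted p = 0.316), and -0.06 with offsets for transcript length. At E12.5 and E14.5 Ntrk2 differed by 0.01 and -0.06. Ntrk3 at E14.5 had 107, 106, 102 and 95.5 CPM in WT and 117, 106, 120 and 106 CPM in KO, a log2 difference of 0.13 (SE 0.0452, adjusted p = 0.315). The highest KO libraries passed all WT libraries and the others overlapped with them. Ntrk3 was 0.19, 0.13 and 0.08 at E12.5, E16.5 and PND0, so the KO mean was the higher at all 4 stages, with adjusted p from 0.315 to 0.932. The E12.5 value was 0.04 without WT 1 and 0.40 without KO 1. With offsets for transcript length, Ntrk3 differed by 0.04 at E16.5 and by 0.31 (adjusted p = 0.0858) at PND0.

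Ngfr differed by -0.46 at E12.5 (SE 0.252, adjusted p = 0.875) and by -0.11 without WT 1. Its KO libraries had 31.5, 29.3, 26.4 and 27.1 CPM there. At E14.5, E16.5 and PND0 the differences were 0.03, 0.00 and -0.07, with adjusted p from 0.863 to 0.990. No member passed the test of whether the KO difference changed with stage, which called 0.0256% of genes. The lowest value was that of Sort1 (adjusted p = 0.303), and it was 0.00351 without E12.5 KO 1 and 0.0027 without both WT 1 and KO 1 of E12.5. Those refits called 797 and 770 genes in turn, against 5 with all libraries, so Sort1 was 1 of many genes called there.

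**Figure D3:**
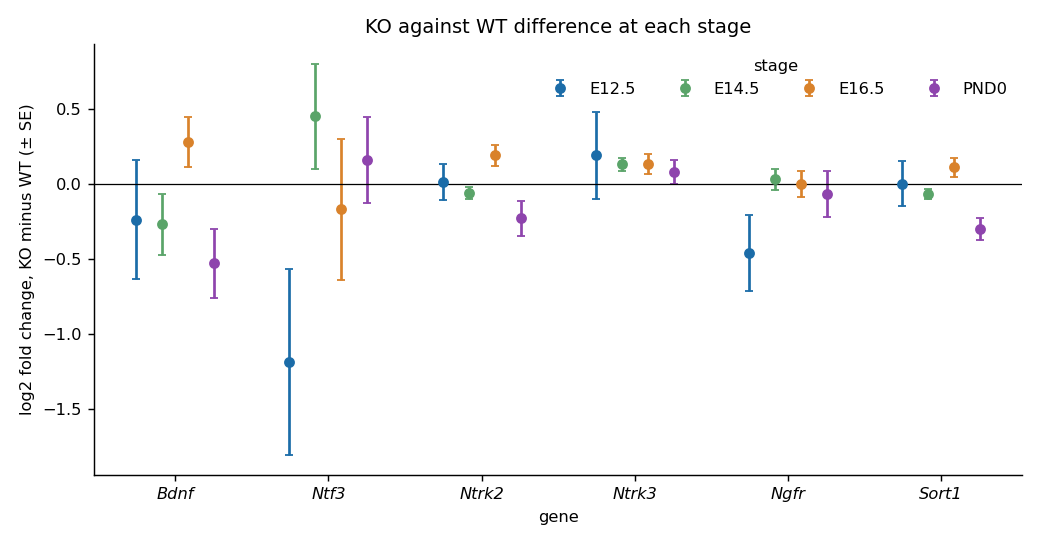
Log2 fold change of KO minus WT (± SE from edgeR) for each gene at the 4 stages, with 4 libraries a group. No point passes the threshold; Sort1 at PND0 lies at -0.30, and the widest bars belong to Ntf3, with an SE of 0.619 at E12.5.

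At E12.5, Ngfr and Ntf3 were highest where the 5 Schwann cell and neural crest markers were highest. Their sums in WT 1 to 4 were 74.7, 19.5, 7.31 and 16.7 CPM and in KO 1 to 4 were 14.3, 4.77, 3.56 and 7.27 CPM, with no marker at 0 in any of these libraries. WT 1 was thus the highest in the markers, in Ngfr (63.8 CPM) and in Ntf3 (7.53 CPM). Among the E12.5 libraries, WT 1 also had the highest sums for meninges and mesenchyme (3353 CPM) and skin markers (133.2 CPM). The same held for sensory ganglia (175.6 CPM), hindbrain and spinal cord (7.835 CPM) and endothelium markers (164.3 CPM). The part of any of these cell types in the E12.5 values was not tested. At E16.5 and at PND0, the library with the highest Ntf3 was also the one with the lowest sum of 5 cerebellum markers. E16.5 WT 1 had Ntf3 at 5.68 CPM and a cerebellum sum of 54.4 CPM, and E16.5 WT 2 had 1.11 and 168.9 CPM. At PND0, KO 4 had Ntf3 at 8.52 CPM with a cerebellum sum of 51.3 CPM, and KO 3 had 2.83 and 130.2 CPM. Other libraries departed from that order: E16.5 KO 1 had the second highest Ntf3 of its stage (3.23 CPM) with a sum of 130.4 CPM, and PND0 WT 2 had the second lowest (3.93 CPM) with a sum of 81.1 CPM. Of the cerebellum markers, Atoh1 or Gabra6 or both were at 0 in all but 1 of these 16 libraries, and their part in the spread of Ntf3 was not tested.

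**Figure D4:**
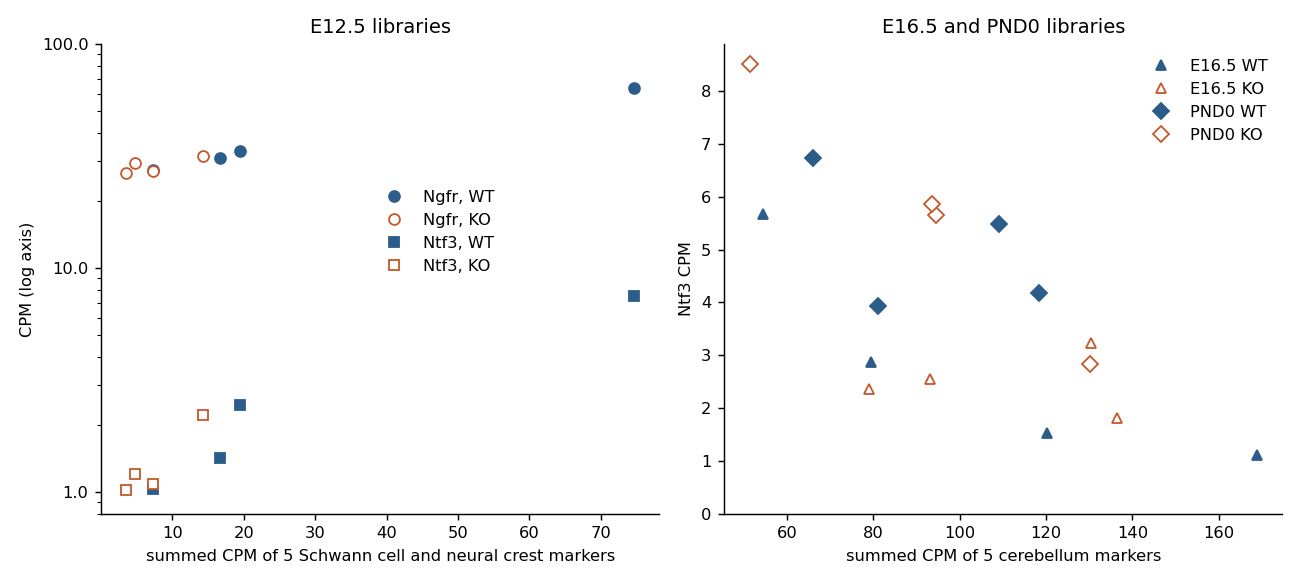
Left, Ngfr (circles) and Ntf3 (squares) in CPM on a log axis against the summed CPM of 5 Schwann cell and neural crest markers in the E12.5 libraries. Right, Ntf3 CPM against the summed CPM of 5 cerebellum markers at E16.5 and PND0; filled symbols are WT and open symbols KO. E12.5 WT 1 lies at 74.7 on the left axis, and PND0 KO 4 at 51.3 with Ntf3 at 8.52 on the right.

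Ntf5, which encodes the other TrkB ligand, NT-4, was scarce. It had 72, 29, 5 and 25 counts in the WT libraries of E12.5 and 20, 3, 3 and 20 in the KO libraries, with WT 1 the highest, and in WT later 0 to 7 (E14.5), 0 to 5 (E16.5) and 0 to 3 (PND0), near the limit that a count of 0 allows. Ntf5 was tested between genotypes at E12.5 alone, and did not pass the threshold (log2 difference -1.25, SE 0.850, adjusted p = 0.875); that value includes WT 1 and was not refitted without it.

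Of 92 listed genes of neurotrophin signalling, 3 calls were made between genotypes. They were 1 of 85 tested at E14.5 (0.527% of all genes) and 2 of 88 at PND0 (1.44%), with none of 86 at E12.5 (0.0177%) and none of 85 at E16.5 (0.0462%). Shc3, a neuronal adaptor of Trk receptors, had 16.1, 13.9, 13.8 and 12.1 CPM in WT and 7.72, 6.88, 7.53 and 8.74 CPM in KO at E14.5. The groups did not overlap, and Shc3 fell by 0.85 on the log2 scale (SE 0.111, adjusted p = 2.38e-06), and the log2 difference was also -0.85 when all 32 libraries were fitted together, with an adjusted p of 1.0. At PND0 the Shc3 difference was -0.90 (SE 0.296, adjusted p = 0.142), also without overlap, with WT 3 at 31.6 CPM. It was 0.05 at E12.5 (adjusted p = 0.988) and 0.05 at E16.5 (adjusted p = 0.900), with overlap at both. Frs2, the docking protein that links Trk receptors to Ras and PI3 kinase, had means of 78.7 ± 7.35 CPM (WT) and 59.3 ± 2.39 CPM (KO) at PND0 (SD, n = 4 each). Frs2 fell by 0.42 (SE 0.0883, adjusted p = 0.0320). The call was lost with offsets for transcript length (-0.28, adjusted p = 0.156), with the ribosomal RNA covariate (adjusted p = 0.753), and without PND0 WT 1 (0.0895), WT 3 (0.116), WT 4 (0.0587), KO 1 (0.104) or KO 2 (0.0923). Mmp9, a secreted protease that can cleave proBDNF, was at 13.7, 14.52, 13.6 and 11.4 CPM in WT and 19.5, 23.3, 33.4 and 25.0 CPM in KO at PND0. Mmp9 rose by 0.92 (SE 0.161, adjusted p = 0.0155), and the adjusted p was 0.0550 without PND0 WT 3 and 0.699 with the ribosomal RNA covariate. Blood markers (4 genes) summed to 179.0 to 237.4 CPM in WT and 210.2 to 2067 CPM in KO at PND0. KO 3 was highest in both Mmp9 and that sum, while KO 2, with Mmp9 at 23.3 CPM, had a sum of 210.2 CPM. The part of blood in the Mmp9 difference was not tested. The medians of the 5 lists between genotypes ran from -0.13 to 0.11, against 0.00 over all genes tested at each stage.

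Over the WT stages many genes of the same lists changed, as did most genes tested. From E12.5 to PND0, 49 of 88 rose and 21 fell, where 34.5% of all genes rose and 36.4% fell. Of 20 genes known to be induced by neurotrophin signalling, 14 rose and 2 fell, with a median log2 fold change of 1.59 against -0.05 over all genes. Many of these genes also respond to other signals. Of 15 genes that process the proforms, 12 were tested, 8 rose and none fell (median 0.80), and of 34 adaptors and kinases of Trk signalling 17 rose and 10 fell (median 0.28). For p75NTR signalling, 4 of 13 rose and 7 fell (median -0.26).

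The genes whose profile over the 32 libraries was most like that of each member were found by the root mean square difference of log2 CPM, with each gene centred on its mean, among 16066 genes. For Sort1 they were Pogz (0.0817) and Mtmr3 (0.0944), for Ntrk2 Hk1 (0.124) and Ids (0.129), and for Ntrk3 Myt1l (0.139) and Kcnq3 (0.155). Ngfr was most like Ptk7 (0.191) and Pskh1 (0.197), Bdnf like Sytl2 (0.290) and Serpine2 (0.316), and Ntf3 like Crym (0.507) and Fgf10 (0.515). The ligands, with the fewest counts, had the least close neighbours. The libraries share stage and depth, and likeness is a description.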

How the data were processed

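Polyadenylated RNA of 32 whole brains was sequenced in read pairs on an Illumina NovaSeq instrument, per the labels' protocols. The submitters' processing notes name HISAT2, SAMtools, featureCounts, DESeq2 and mm10, with no versions, and the annotation, the strand setting and the treatment of reads with several matches are not given in the sources used here. For each stage, the authors deposited a table of raw, unnormalized counts by gene symbol. The members and the gene lists were chosen with earlier results of these data known, so no pattern is given as independent support.

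Counts were tested with edgeR 4.0.16 in R 4.3.3: genes passing filterByExpr (counts of 10, totals of 15), TMM scaling and the robust quasi-likelihood F test, with Benjamini-Hochberg adjustment over all genes tested and a threshold of 0.05. KO was compared with WT in the 8 libraries of a stage, and WT stages were compared in the 8 WT libraries of both. An F test of 3 contrasts over all 32 libraries asked whether the KO difference changed with stage. A log2 fold change above 0 means more in KO, or at the later stage, and its standard error (SE) was taken as its absolute value over the root of F. CPM is the usual count scaled to the library total, with TMM factors over the 32 libraries. Likeness between genes used log2 CPM with a prior count of 2. Gene positions and exon lengths came from GENCODE M21 (GRCm38), which gave 1 position for 53180 of 55291 symbols. The KO against WT fits, plain and with length offsets, and the test of the KO difference by stage were run on simulated counts. Those counts had 1 fixed spread for all genes. The WT stage comparisons and the other alternatives were not simulated.

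Alternatives were RLE scaling, no filter on low counts, DESeq2 1.42.0, the replicate number as a block, a covariate of sex-linked genes, all libraries in 1 fit, length offsets (a smooth trend on transcript length, span 0.3), a covariate of the abundant ribosomal RNA gene CT010467.1, and leaving out each library. The length offsets and the ribosomal RNA covariate were run only for the KO against WT comparisons. Neither was run for the WT stage comparisons or for the test of the KO difference by stage. Leaving out both WT 1 and KO 1 of E12.5 was added after seeing the data. Totals of 13.87 to 28.32 M counts per library put the limit that a count of 0 allows (3 counts) at 0.106 to 0.216 CPM, for counting error only. No pair of libraries within a group was a copy: over 48 pairs, the chi-square per degree of freedom ran from 2.899 to 114.7 for genes with at least 20 counts.

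The named genes were the 6 members, Dhcr7, relatives of the members (some are not reported here), the listed pathway genes past the threshold in a KO against WT comparison, and for each member the 2 genes with the most similar pattern.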

Additional observations from a re-analysis of the deposited data

Results flagged for a closer look

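In 6 of 48 sets of 4 libraries (6 genes in 8 groups), the highest or lowest library lay so far from the nearest other that its gap, as a share of the whole range, exceeded the 95% critical value of Dixon's test for 4 values. Chance gives about 1 in 20. Of the 6, 5 were at E12.5 and fell on WT 1 or KO 1. E12.5 WT 1 had Bdnf at 6.27 CPM against 1.90 to 2.32 in the other WT libraries, and Ngfr at 63.8 CPM against 27.3 to 33.3. E12.5 KO 1 had Bdnf at 3.19 CPM against 2.41 to 2.55 in the other KO libraries, Ntf3 at 2.20 CPM against 1.03 to 1.21, and Sort1 at 124 CPM against 196 to 200. At E14.5, WT 3 had Ntf3 at 0.413 CPM, from 9 counts, against 0.850 to 0.893 in the other WT libraries. No member passed the test for a KO difference that changed with stage when all 32 libraries were used.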

How the results depend on the processing

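Over the 6 members, 949 values under other settings were computed. Of these, 891 kept their direction and their side of the threshold, 3 lost a call, 17 gained one and 38 changed sign. The number of members called at PND0 rose from 0 to 1 (Sort1) with no filter on low counts (adjusted p = 0.0261), with DESeq2 (0.0103) and with all 32 libraries in 1 fit (0.0455), and leaving out 1 library gave 0 to 1. For the KO difference by stage it rose from 0 to 1 (Sort1) without both WT 1 and KO 1 of E12.5 (adjusted p = 0.0027), and leaving out 1 library gave 0 to 1.

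Sign changes were in values that did not pass the threshold before the change. KO minus WT at E12.5 for Sort1 went from 0.0014 to -0.0018 with RLE scaling, -0.0028 with no filter, -0.02 under the replicate block and -0.03 with the sex-gene covariate, and ran from -0.05 to 0.13 when 1 library was left out. Without both WT 1 and KO 1 of E12.5, Bdnf there turned from -0.24 to 0.25 and Ntrk2 from 0.01 to -0.01; leaving out 1 library gave -0.42 to 0.36 for Bdnf and -0.07 to 0.08 for Ntrk2. With the ribosomal RNA covariate, Ngfr became -0.01 (E14.5), -0.01 (E16.5) and 0.12 (PND0), and Ntf3 became 0.34 at E16.5 (0.24 with the sex-gene covariate). Leaving out 1 library moved Ngfr between -0.03 and 0.08 at E14.5, between -0.03 and 0.04 at E16.5 and between -0.16 and 0.02 at PND0, and Ntf3 between -0.45 and 0.43 at E16.5 and between -0.09 and 0.38 at PND0. For WT from E12.5 to E14.5, Bdnf was 0.07 under the replicate block and -0.26 to 0.53 with 1 library left out. From E16.5 to PND0, Ntrk3 was 0.0043 with RLE scaling, 0.05 with all libraries in 1 fit and -0.06 to 0.03 with 1 library left out, where Ngfr was -0.05 to 0.13. The cause of these changes was not tested.

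Counts of genes called over the whole table moved more. At PND0 they were 250 as reported, 1091 with no filter, 921 with DESeq2, 1205 with all libraries in 1 fit, 47 with length offsets and 2 with the ribosomal RNA covariate, and 35 without WT 3, 38 without KO 1, 62 without WT 1 and 95 without KO 2, in a range of 35 to 263 with 1 library left out. At E16.5 they were 8 as reported, 233 with no filter, 168 with DESeq2 and 3 to 14 with 1 library left out, at E14.5 94 as reported, 146 with no filter, 4 with all libraries in 1 fit and 52 to 155 with 1 library left out, and at E12.5 3 as reported, 30 with DESeq2 and 52 with all libraries, and 1 to 5 with 1 library left out. For the KO difference by stage the count went from 5 to 344 with DESeq2, 11 with no filter, 0 under the replicate block and 770 without both E12.5 libraries, and it ran from 0 to 797 (without E12.5 KO 1) with 1 library left out.

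The replicate numbers gave no sign of pairing: deviations of same-numbered WT and KO libraries from their group means correlated between -0.271 and 0.379, and not every library correlated best with its own number. With the number as a block, no member was called between genotypes, while Ntf3 was called in WT from E16.5 to PND0 (1.01, adjusted p = 0.00522) and from E12.5 to PND0 (1.07, adjusted p = 0.0428). Depth limits the ligands most, since Ntf3 rested on 9 to 143 counts per library and Bdnf on 33 to 151.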

Other observations

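Per kilobase of exon, the ratio of Ntrk2 to Ntrk3 in WT brain was lowest at E16.5. Its range over the 4 libraries was 2.21 to 3.17 (E12.5), 2.16 to 2.37 (E14.5), 1.43 to 1.84 (E16.5) and 2.82 to 3.74 (PND0). The E16.5 libraries lay below those of every other stage. In KO brain the range was 1.88 to 3.76, 1.85 to 2.06, 1.5 to 1.82 and 2.40 to 2.70. KO libraries lay below all WT libraries at E14.5 and at PND0, a comparison made after the values were seen and not tested. The ratio of Bdnf to Ntf3 per kilobase ran from 0.166 to 1.65 over the 16 WT libraries and from 0.100 to 0.906 over the 16 KO libraries, and the genotypes overlapped at every stage.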
